A study of Mus musculus with 7 samples.

Results

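MiR-196 and miR-10 are microRNAs whose hairpin genes lie inside the Hox gene clusters. On the mouse miRNA array used here, 7 mature miRNAs of 696 came from the hairpins miR-196a, miR-196b, miR-10a and miR-10b, and every arm of these hairpins on the array was taken. They were chosen by name after miR-196a was already known to stand out in these samples, so their values in the 3 groups are a description and carry no test. Of the 7, the 3 called miR-196a-5p, miR-10a-5p and miR-10b-5p were detected on all 7 arrays and are in the deposited table of 252 miRNAs. The other 4, miR-196b-5p, miR-196a-2-3p, miR-10a-3p and miR-10b-3p, were detected on 0 arrays.

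The samples were soft tissue sarcoma cells of mice whose p53 gene had been knocked out, so all groups lacked p53, including the controls. Control primary cells carried a non-target shRNA and grew as a monolayer (2 arrays). Rb-depleted primary cells carried an shRNA against Rb1, the gene of the retinoblastoma protein, and grew the same way (2 arrays). Rb-depleted secondary cells came from pooled spheres that Rb-depleted cells had formed in serum-free methylcellulose, and were returned to a monolayer for 1 passage (3 arrays). A single shRNA sequence against Rb1 was used, delivered by a vector with puromycin selection. No array of control cells that had passed through sphere culture was analysed here, so in the comparison of secondary with control cells Rb depletion and sphere culture cannot be told apart. Secondary cells were also set against Rb-depleted primary cells, where both carry the Rb1 shRNA. In that comparison sphere culture, the picking of spheres by hand and the return to a monolayer cannot be told apart.

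Hox genes encode homeobox transcription factors that give cells their position along the body axis, and the miRNAs lie among them and can act on their transcripts. A mature miRNA finds a transcript mainly through its seed, the bases near its 5′ end, so miRNAs that share a seed can share targets. MiR-196 is known to pair almost fully with the Hoxb8 transcript and to direct its cleavage, and miR-10b is known for its link to invasion of cancer cells.

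The 4 mature 5p sequences are shown because the results turn on them and because each pair differs by 1 base. They were taken from RefSeq (table of build GRCm38.p6), where all 7 of the 7 miRNAs had an entry, and are written 5′ to 3′ with the seed, bases 2 to 8, in capitals.
miR-196a-5p: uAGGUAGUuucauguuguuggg
miR-196b-5p: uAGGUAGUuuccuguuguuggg
miR-10a-5p: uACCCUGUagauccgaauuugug
miR-10b-5p: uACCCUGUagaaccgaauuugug
MiR-196a-5p and miR-196b-5p had the same base at 21 of 22 positions and differed by A12C, counted from the 5′ end. MiR-10a-5p and miR-10b-5p had the same base at 22 of 23 positions and differed by U12A. Both differences lay outside the seed, so the 4 sequences held 2 seeds. Among the 542 of the 696 miRNAs on the array that had a RefSeq entry, 0 others shared a seed with any of the 7. How far the probes of the array separate sequences that differ by 1 base was not tested.

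Known targeting of Hoxb8 can be read in the sequence. Over the protein-coding transcripts of 22611 genes, the best ungapped pairing of miR-196a-5p covered all 22 of its bases, with G:U wobbles counted as pairs. Pairing of all 22 was found in 3 genes, one of them Hoxb8, in the 3′UTR of transcript Hoxb8-001 at chr11:96146202-96146223 of NCBIM37, plus strand. At this site 21 were Watson-Crick pairs and 1 was a G:U wobble at base 5. The same stretch is also annotated within the 5′UTR of a transcript of the neighbouring gene Hoxb7, and the third gene was Rps6ka2. The site is shown because it faces the whole of miR-196a-5p, with the 7 bases that face the seed in capitals.
Hoxb8 site: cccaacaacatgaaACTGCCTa
Hoxb8 itself is an mRNA and was not measured by the miRNA array.

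MiR-196a-5p is made from 2 hairpins, so the array value of this arm sums both. In NCBIM37, the build named in the headers of the scanner files, Mir196a-1 lay on chromosome 11 from 96126478 to 96126579 (plus strand), between genes, 6.192 kb before Hoxb9. Mir196a-2 lay on chromosome 15 from 102803772 to 102803881 (plus strand), in an intron of the non-coding gene Gm20398, between Hoxc10 at 1.448 kb and Hoxc9 at 2.989 kb. Mir10a lay on chromosome 11 from 96178479 to 96178588 (plus strand), in an exon of transcript Hoxb4-001 and 51.9 kb beyond Mir196a-1. Mir10b lay on chromosome 2 from 74564127 to 74564194 (plus strand), in introns of Hoxd3 and Hoxd4. Mir196b lay on chromosome 6 from 52180080 to 52180164 (minus strand), in an exon of Hoxa9-003 and an intron of Hoxa9-004. The map of hairpins and Hox genes sets these positions side by side. MiR-196a-5p and miR-10a-5p therefore share the HoxB cluster, while miR-10b-5p comes from HoxD.

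**Figure D1:**
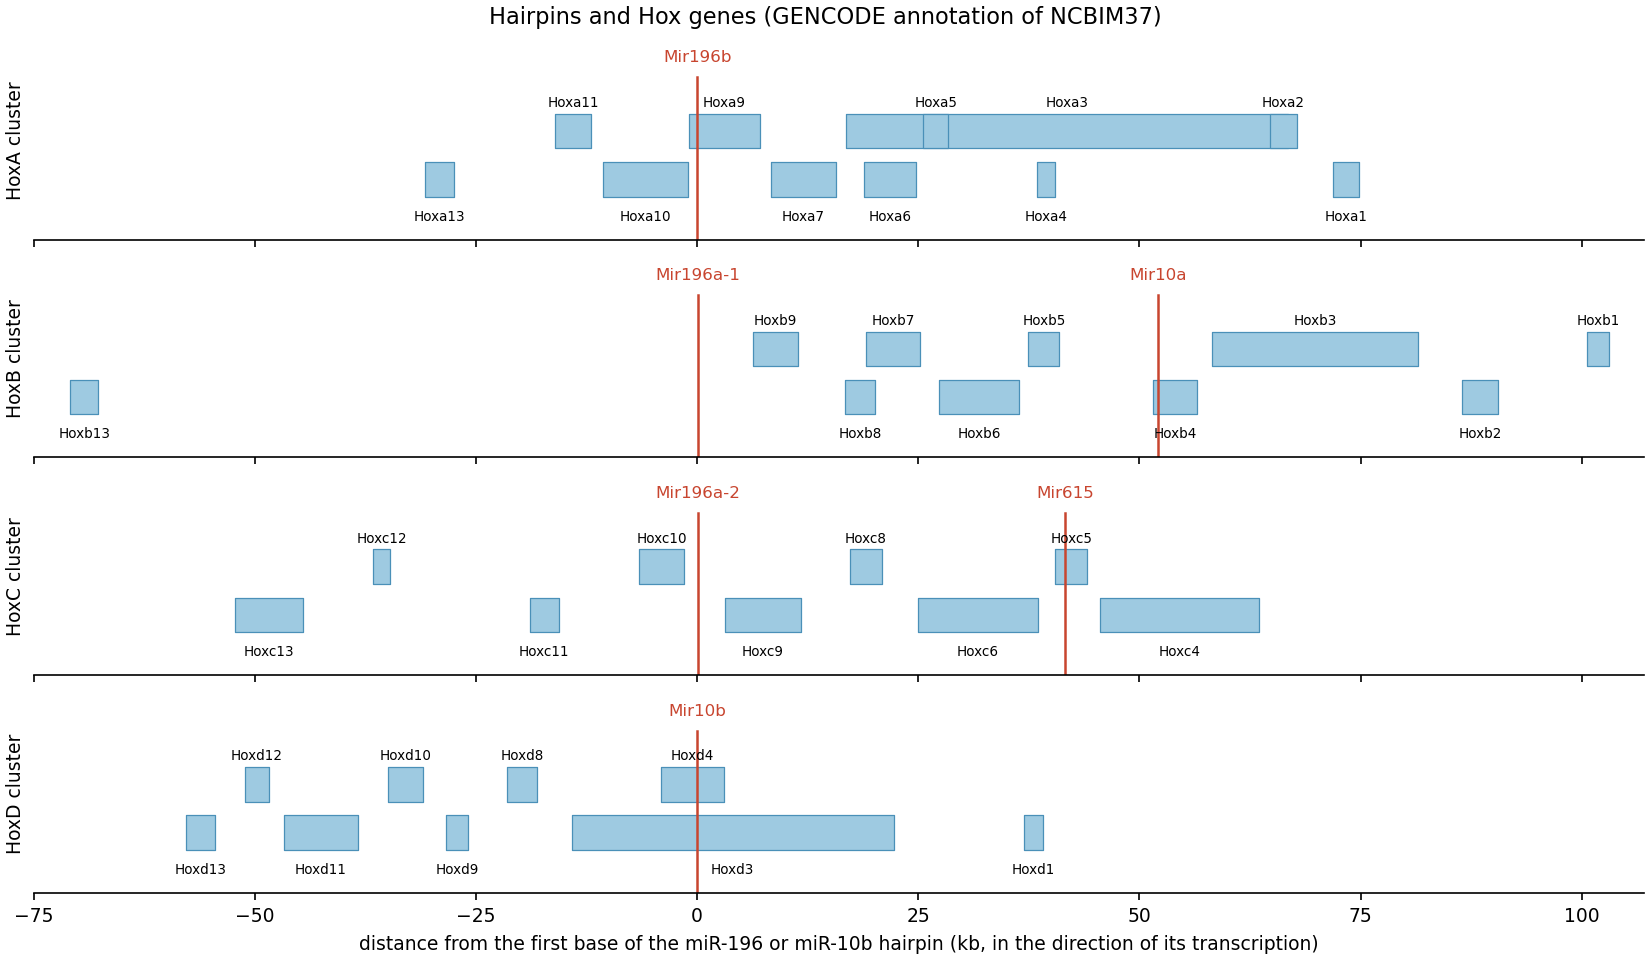
Positions of the 5 hairpins and of Mir615 (red lines) among the Hox genes (blue boxes) of the HoxA, HoxB, HoxC and HoxD clusters, with distance in kb from the first base of the miR-196 or miR-10b hairpin, in the direction of transcription. Mir10a lies 51.9 kb beyond Mir196a-1 in HoxB, and Mir615 lies 41.46 kb beyond Mir196a-2 in HoxC.

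A 1-colour array reports the total gene signal, the summed brightness of the probes of a miRNA after background subtraction, with the error that the scanner software assigns to it. The software also states whether the miRNA was detected, and a miRNA that was not is given the value 0.1. Between 258 and 287 of the 696 miRNAs were detected per array. Of the 2 slides, one held both groups of primary cells and secondary replicate 1, and the other held secondary replicates 2 and 3. All 7 markers of mesenchymal cells were detected on all 7 arrays. Their summed signal was 79034 to 85320 in control, 67349 to 77840 in Rb-depleted primary and 72859 to 86832 in secondary cells, most of it from miR-21a-5p (55322 to 69912), which is not specific to these cells. Among the others, miR-199a-3p read 4031 to 6163 and miR-145a-5p 91.5 to 152. Of the markers of other cell types, 0 of 7 epithelial, 0 of 4 haematopoietic and 0 of 1 liver markers were detected. Of 4 muscle markers only miR-206 was, at 12.9 to 47.0, and of 3 neural markers miR-9-5p and miR-128-3p were.

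MiR-196a-5p was low in both groups of primary cells and highest in secondary cells, where the 3 arrays differed widely. Its total gene signal was 15.7 (error 2.59) and 12.03 (error 2.33) in control primary cells. The values were 10.4 (error 1.93) and 8.60 (error 1.59) after Rb depletion of primary cells. In Rb-depleted secondary cells it was 59.9 (error 4.58), 17.7 (error 2.28) and 69.5 (error 4.23). Secondary replicates 1 and 3 stood far above every other array, while secondary replicate 2 lay next to the control arrays. The gap of 2.03 between secondary replicate 2 and control replicate 1 was smaller than the error of either value, and so was the gap of 1.58 between control replicate 2 and Rb-depleted primary replicate 1. Secondary replicate 1, one of the 2 high arrays, shared its slide with the primary cells, so high values occurred on both slides. Group means were 13.8 ± 2.57 in control cells (SD, n = 2), 9.52 ± 1.30 in Rb-depleted primary cells (SD, n = 2) and 49.0 ± 27.6 in secondary cells (SD, n = 3). In bulk RNA, fewer cells that make a miRNA and less of it per cell cannot be told apart.

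Its place among the detected miRNAs of each array moved in the same way. Counted from the brightest, miR-196a-5p ranked 250 of 285 and 256 of 284 in control cells, and 261 of 285 and 262 of 287 in Rb-depleted primary cells. In secondary cells it ranked 161 of 258, 226 of 276 and 151 of 283. In primary cells its signal was between 2.48 and 3.47 times the lowest signal called detected on the same array, so these values lay near the detection limit. In secondary cells it was 11.1, 4.64 and 20.01 times that limit, with replicate 2 nearest to the primary range.

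In the deposited table, whose log2 values the authors made by quantile normalization, miR-196a-5p had the values 3.51 and 3.25 in control cells. Both arrays of Rb-depleted primary cells were lower, at 2.26 and 2.22. The 3 arrays of secondary cells were higher than all primary cells, at 6.02, 4.44 and 6.30. The difference of group means on the deposited log2 scale was 2.21 between secondary and control cells (SE 0.59, n = 3 and 2), which is 4.62-fold. Between secondary and Rb-depleted primary cells it was 3.35 (SE 0.58, n = 3 and 2), which is 10.2-fold. That fold depended on the scaling: it was 4.42 without normalization, 5.14 and 4.75 with the arrays scaled by their 75th percentile over detected or all mouse miRNAs, and 5.59 with the table normalized alone. Between Rb-depleted primary and control cells it was -1.14 (SE 0.13, n = 2 and 2). Within secondary cells, replicate 2 lay farthest from the group mean of 5.59. The plot of the members' levels shows both scales.

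**Figure D2:**
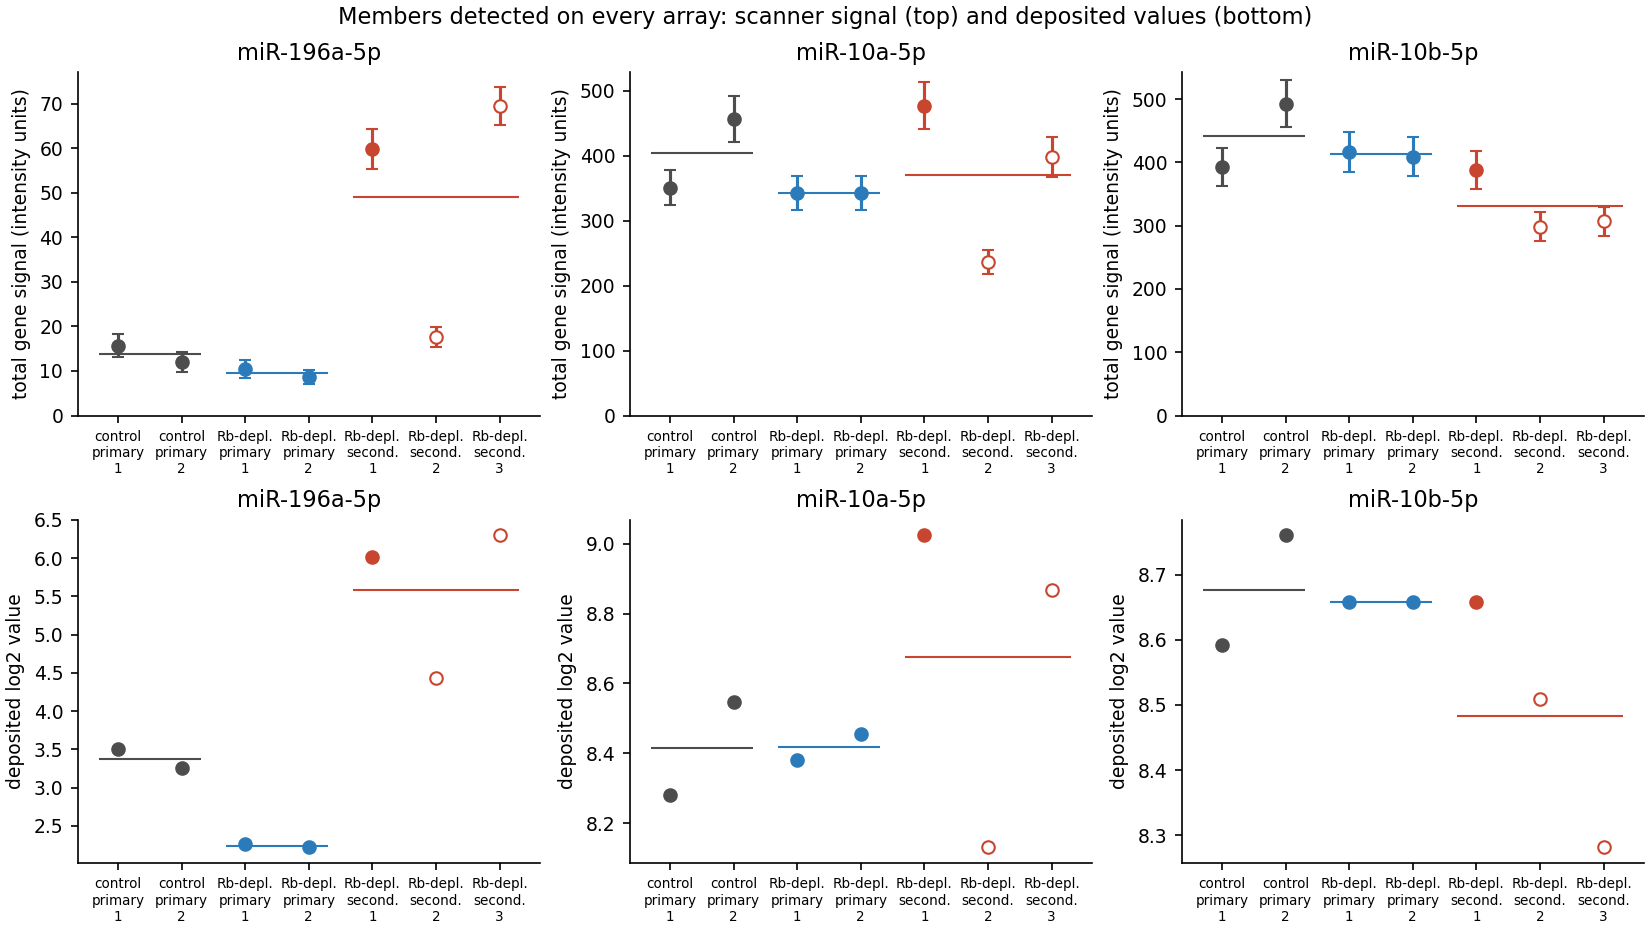
Each point is 1 array; the top row gives the total gene signal with the scanner's error (intensity units) and the bottom row the deposited log2 value, for miR-196a-5p, miR-10a-5p and miR-10b-5p. Lines are group means, and open points are the arrays on the slide without primary cells. MiR-196a-5p reached 59.9 and 69.5 in secondary replicates 1 and 3 and 17.7 in secondary replicate 2.

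Groups of so few arrays often fail to overlap, so the background stands beside each count. Of the 3 miRNAs of the table, 1 (miR-196a-5p) had both Rb-depleted primary arrays below the control arrays, as did 26.6% of all 252 miRNAs. The same 1 of 3 had all secondary arrays above the control arrays, as did 29.8% of the table. It also had all secondary arrays above the Rb-depleted primary arrays, as did 27.0% of the table. The size of the differences of miR-196a-5p was in view when the miRNAs were chosen, so its ranks restate that choice. Its difference between secondary and Rb-depleted primary cells was the highest of the 252 on the deposited scale. That between secondary and control cells ranked 4 of 252. On the scanner scale without normalization miR-196a-5p ranked 1 of 252 in both.

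The direction of the group mean in secondary cells was the same on each of the 4 probes that read miR-196a-5p, each printed as 5 spots. Probe 1 carried between 7.66% and 13.1% of the summed probe signal and probe 4 between 31.7% and 38.8%. The mean probe signal in secondary cells was 3.68, 2.82, 2.64 and 2.82 times that in control cells for probes 1 to 4. In Rb-depleted primary cells it was 0.738, 0.706, 0.821 and 0.837 times the control mean. Probe 1 read only 1.42 and 2.08 in control cells with errors of 1.41 and 1.54, so its ratio is the least certain of the 4. On secondary replicate 2 the probes read 2.67, 4.84, 5.73 and 7.12, against 9.04, 17.4, 20.5 and 22.6 on secondary replicate 3, so no single probe carried the split among secondary arrays.

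MiR-196b-5p, the HoxA copy with the same seed, was not called detected on any array, and its 2 probes were read directly. Probe 1 lay between -1.05 and 1.5, within its error on every array. Probe 2 read 0.96 and 1.84 in control cells and 1.27 and 1.53 in Rb-depleted primary cells. In secondary cells it read 5.29 (error 3.36), 1.1 (error 2.34) and 4.47 (error 2.21). The 2 higher readings fell on the arrays where miR-196a-5p was also high. Since the sequences differ by 1 base, whether this signal came from miR-196b or from miR-196a was not tested. The plot of probe signals shows the 2 miRNAs on one scale. The 3p arms of miR-196a-2, miR-10a and miR-10b, the strands that are usually discarded, gave no detected signal on any array.

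**Figure D3:**
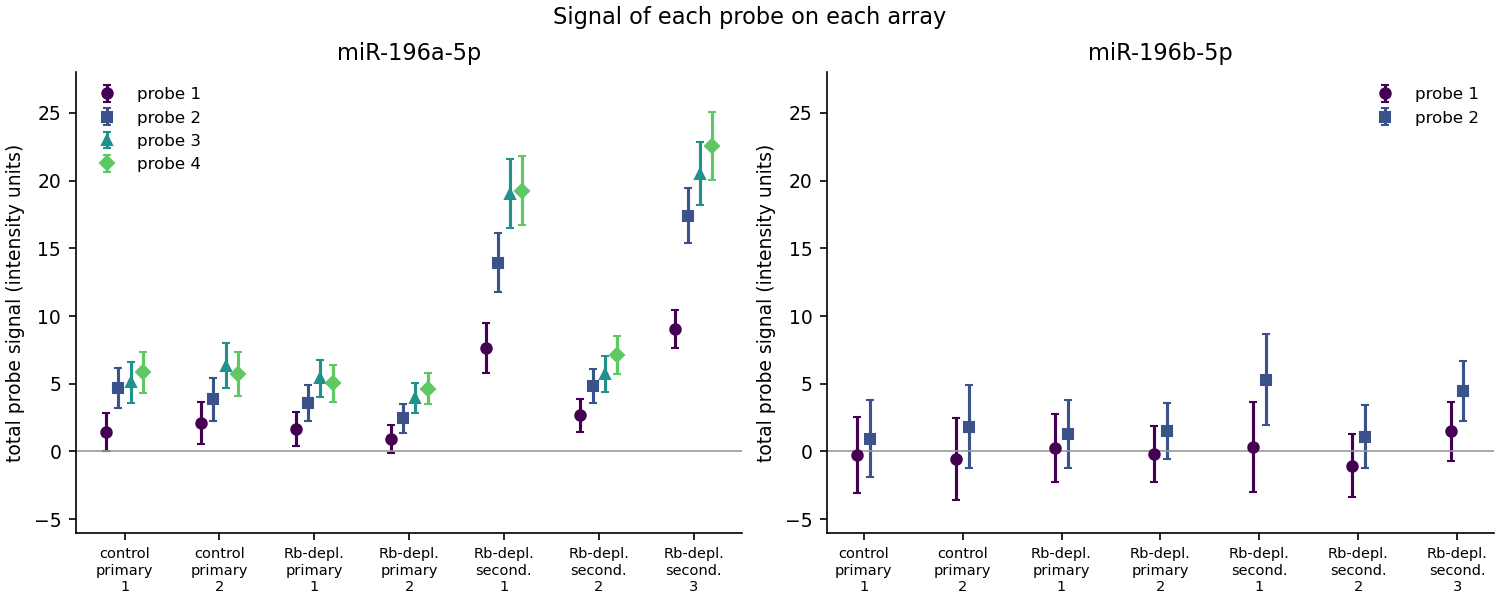
Total probe signal (intensity units, bars are the scanner's error) of the 4 probes of miR-196a-5p and the 2 probes of miR-196b-5p on the 7 arrays. All 4 probes of miR-196a-5p are high on secondary replicates 1 and 3, and probe 2 of miR-196b-5p reads 5.29 and 4.47 on the same arrays.

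The lower level of miR-196a-5p in Rb-depleted primary cells depended on how the arrays were scaled. Without normalization its log2 difference from control cells was -0.53 (SE 0.24), while the median over the 252 miRNAs was -0.26. Relative to that median it was -0.27, and it ranked 61 from the lowest of the table. When each array was scaled by its 75th percentile, the difference was -0.30 with the percentile taken over the miRNAs of the table. Taken over all mouse miRNAs it was -0.16 and the groups overlapped. On the deposited scale it was -1.14 and ranked 5 from the lowest. In the plot of scalings the value came as near to the table's median as -0.22 against -0.22 (offset of 16), while secondary cells stayed above both primary groups in all 7 settings shown.

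The step that gave the larger value can be followed in the files. Quantile normalization replaces each value by the mean, over the 7 arrays, of the values that hold the same rank among 718 features. At the ranks of miR-196a-5p in both Rb-depleted primary arrays, the feature of that rank on secondary replicate 1, the array with the fewest detected miRNAs (258), was not detected and entered as -3.32 on the log2 scale. The other 6 arrays averaged 3.19 and 3.15 at these ranks, against 2.26 and 2.22 with that array. At the ranks of miR-196a-5p in control cells every array had a detected feature. With the mean taken over detected features only, an alternative chosen after the data were seen, the difference between Rb-depleted primary and control cells was -0.21, that between secondary and control cells stayed at 2.21, and that between secondary and Rb-depleted primary cells was 2.42. The deposited value minus the scanner log2 value of miR-196a-5p was -1.13 and -0.88 in Rb-depleted primary cells, against -0.46 and -0.34 in control cells.

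**Figure D4:**
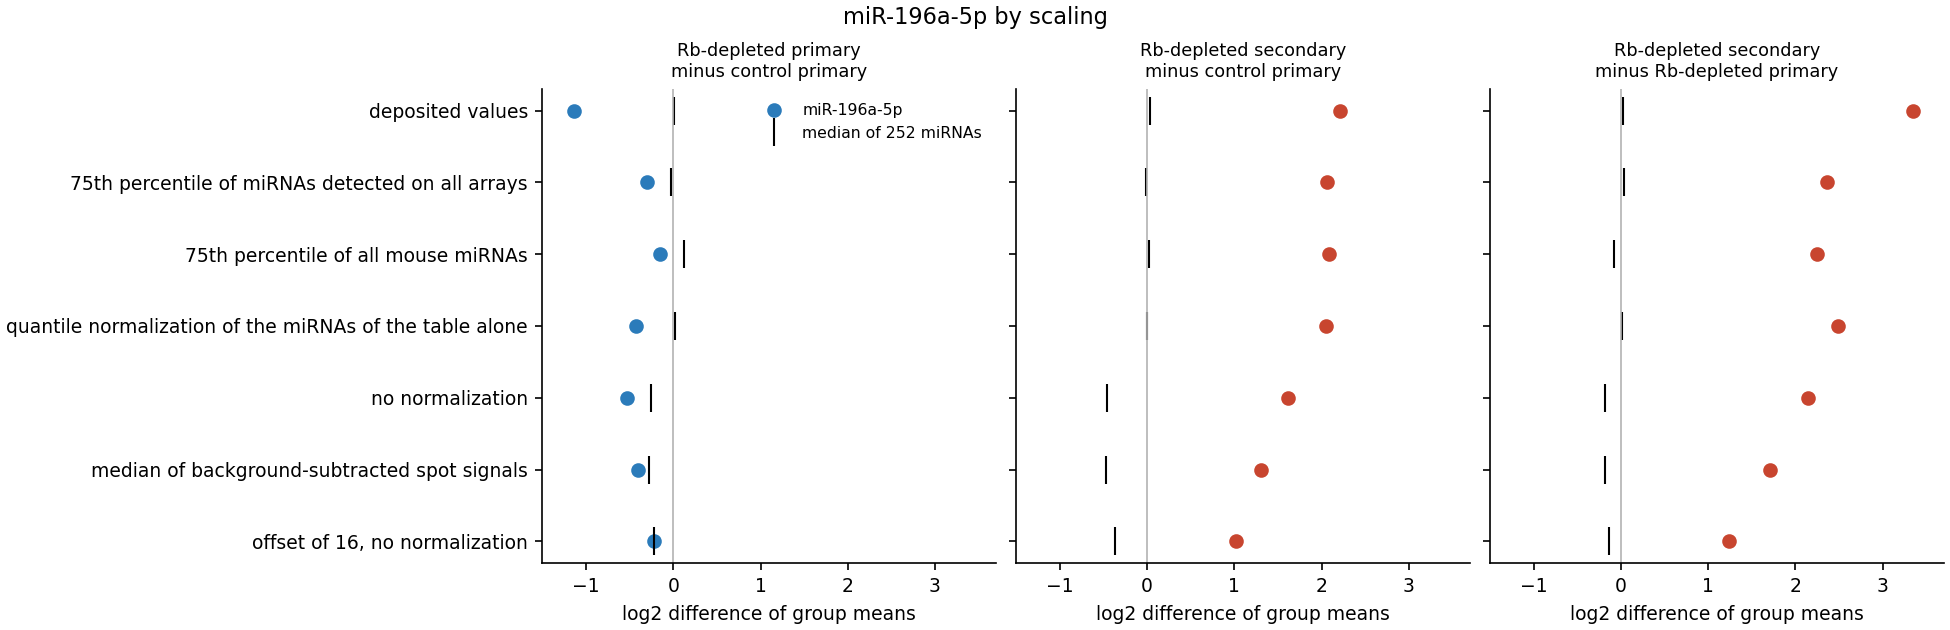
Log2 difference of group means of miR-196a-5p (points) and the median difference over the 252 miRNAs (black marks) for the deposited values and 6 other scalings. Against Rb-depleted primary cells and against controls, secondary cells are higher by 1.24 to 3.35 and by 1.02 to 2.21, while Rb-depleted primary cells lie between -1.14 and -0.16 of the controls.

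MiR-10a-5p, the HoxB member of the other family, was bright on every array, and on the deposited scale its groups overlapped. Its total gene signal was 351 and 456 in control cells and 342 and 343 in Rb-depleted primary cells. In secondary cells it was 477, 237 and 398. Both Rb-depleted primary arrays lay below both control arrays on this scale, with a log2 difference of -0.22 (SE 0.19), where the median of the 252 miRNAs was -0.26. The secondary arrays held both the highest and the lowest value of the series, and secondary replicate 2 was again the low one. On the deposited log2 scale the values were 8.28 and 8.55 in control, 8.38 and 8.46 in Rb-depleted primary, and 9.02, 8.13 and 8.87 in secondary cells. The differences from control cells were 0.00 in Rb-depleted primary (SE 0.14) and 0.26 in secondary cells (SE 0.31).

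MiR-10b-5p, from HoxD, varied less. Its total gene signal was 392 and 493 in control cells. It read 416 and 409 with Rb depleted in primary culture, and 388, 299 and 307 in secondary cells. All 3 secondary arrays were the lowest of the series on this scale, but secondary replicate 1 lay only just below the lower control array. On the deposited log2 scale the values were 8.59 and 8.76 in control cells, 8.66 in both Rb-depleted primary arrays, and 8.66, 8.51 and 8.28 in secondary cells, so the groups overlapped. The equal values follow from equal ranks, since quantile normalization gives 1 number to 1 rank, and the SD of 0 in Rb-depleted primary cells is not a biological spread. The difference between secondary and control cells was -0.19 on the deposited scale (SE 0.14) and -0.42 without normalization (SE 0.20), where the median of all 252 miRNAs was -0.46. In the order of deposited group means, neighbours differed by less than the larger SD of the pair for both miR-10 miRNAs, while the lowest and highest means of miR-10b-5p, in secondary and control cells, differed by slightly more (SD 0.189 and 0.119).

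Because both miR-10 arms were read on the same array, a scaling factor cancels in their difference. On the scanner log2 scale miR-10a-5p minus miR-10b-5p was -0.16 and -0.11 in control cells. Primary cells with Rb depleted gave -0.28 and -0.26. In secondary cells it was 0.30, -0.33 and 0.37. MiR-10a-5p was therefore the brighter of the 2 only on secondary replicates 1 and 3, the same arrays on which miR-196a-5p was high. Each of these miR-10 miRNAs was read by 2 probes of 10 spots, and their 2 probes gave nearly the same ratio of secondary to control cells, 0.914 and 0.920 for miR-10a-5p and 0.708 and 0.768 for miR-10b-5p. A brightness difference between miRNAs does not measure a difference in their abundance, since probes differ in how they bind, but a change of that difference between arrays does not depend on a factor for the whole array.

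The same cancellation applies to miR-196a-5p and its HoxB neighbour miR-10a-5p. On the scanner log2 scale miR-196a-5p minus miR-10a-5p was -4.48 and -5.25 in control cells. After Rb depletion it was -5.03 and -5.32 in primary cells and -2.99, -3.74 and -2.52 in secondary cells. The secondary range did not overlap the primary ranges, so miR-196a-5p was nearer to miR-10a-5p in brightness on all 3 secondary arrays, replicate 2 included. On replicate 2, however, miR-10a-5p had its lowest signal of the series, 237. There miR-196a-5p exceeded control replicate 1 by only 2.03, less than the error of either value. The difference on that array therefore does not by itself show a higher miR-196a-5p.

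The miRNAs of the table whose course over the 7 arrays was most like that of each member were named by the smallest root mean square difference of deposited log2 values centred on their own mean, among 249 miRNAs. For miR-196a-5p these were miR-574-3p (0.51), miR-1839-5p (0.74) and miR-148a-3p (0.86), where the median over the 249 was 1.54. MiR-574-3p and miR-1839-5p were dim, at 4.01 to 10.9 and 5.82 to 10.8 in total gene signal. On that scale the likeness of miR-574-3p did not extend to secondary replicate 2, where it had its lowest value of the 7 arrays (4.01, against 4.45 or more in primary cells) and miR-196a-5p lay above every primary array. MiR-1839-5p read 7.28 and 9.43 in control, 6.35 and 5.82 in Rb-depleted primary and 10.8, 7.32 and 9.51 in secondary cells. Its secondary replicate 2 thus lay within the control range, though above both Rb-depleted primary arrays. MiR-148a-3p was well above the limit, at 116 and 161 in control, 106 and 94.3 in Rb-depleted primary and 258, 173 and 381 in secondary cells, and it too was lowest on replicate 2 among the secondary arrays. For miR-10a-5p the nearest was miR-99a-5p (0.11), followed by miR-22-5p (0.14) and miR-26b-5p (0.18). For miR-10b-5p they were miR-221-3p (0.07), miR-365-3p (0.08) and miR-107-3p (0.10).

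The relatives of miR-10 and the other Hox-cluster miRNA of the array were not used in the choice of miRNAs. They were tested, though the lists of them were chosen with earlier results of these data known. They comprised 11 arms on the array. MiR-615, from an intron of Hoxc5 and 41.46 kb beyond Mir196a-2, contributed 2, and miR-99a, miR-99b, miR-100, miR-125a and miR-125b, which belong to the wider miR-10 family, contributed 9. Of these, 8 were in the table and 3 were detected on 0 arrays (miR-615-5p, miR-125b-1-3p and miR-125b-2-3p). In sequence miR-99a-5p and miR-100-5p are close to miR-10a-5p when shifted by 1 base, with 18 and 19 of 22 bases the same, as the printed sequences show.
miR-10a-5p: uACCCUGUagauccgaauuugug
miR-99a-5p: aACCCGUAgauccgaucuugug
miR-100-5p: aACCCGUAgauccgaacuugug
Their seeds, again in capitals, are not that of miR-10.

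Of the 8, none passed limma's test when Rb-depleted primary cells were set against controls (0 of 8 at a Benjamini-Hochberg adjusted p of 0.05, where 1.59% of the 252 passed, and 1 of 8 at an unadjusted p of 0.05). Between secondary and control cells 1 of 8 passed, where 22.6% of the table did. Between secondary and Rb-depleted primary cells 0 of 8 passed with limma, where 20.2% of the table did, and 3 of 8 had an unadjusted p under 0.05. In the limma F-test over the 3 groups 2 of 8 had an adjusted p under 0.1, where 43.3% of the table did. These were miR-125a-5p (adjusted p = 0.067) and miR-99b-3p (adjusted p = 0.096). The median log2 difference of the 8 was 0.18, 0.07 and -0.11 in the 3 comparisons in this order, and that of the table was 0.01, 0.03 and 0.02.

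MiR-125a-5p was the one that passed between secondary and control cells, and both its call and its sign depended on the scaling. Its deposited log2 values were 9.16 and 9.10 in control cells and 9.48, 9.42 and 9.37 in secondary cells, a difference of 0.29 (SE 0.07, limma adjusted p = 0.040). Its total gene signal was 695 and 704 in control and 607, 642 and 532 in secondary cells, a log2 difference of -0.24 without normalization (limma adjusted p = 0.20), which is less negative than the table's median of -0.46. With each array scaled by its 75th percentile the difference was 0.21 over the miRNAs of the table and 0.24 over all mouse miRNAs, and neither passed (limma adjusted p = 0.31 and 0.18). Under both of these scalings 1 of 8 companions was called as well, but it was miR-99b-3p. Its differences between secondary and control cells were -0.66 and -0.63 (limma adjusted p = 0.032 and 0.019). The share of the table called under these 2 scalings was not counted. On the scanner scale the 3 secondary arrays of miR-125a-5p lay below both control arrays. The call also rested on single arrays: it was lost without either control array or without secondary replicate 1 or 3 (limma adjusted p = 0.083 to 0.14) and held without secondary replicate 2.

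MiR-615-3p, the HoxC neighbour of Mir196a-2, did not share the pattern of miR-196a-5p. Its total gene signal was 10.2 and 9.59 in control, 10.8 and 11.02 in Rb-depleted primary and 8.14, 7.84 and 9.16 in secondary cells. The 3 secondary arrays were the lowest. On the deposited log2 scale its difference from control cells was 1.16 in Rb-depleted primary (SE 0.43, limma adjusted p = 0.17) and 0.90 in secondary cells (SE 0.40, limma adjusted p = 0.16), so its secondary cells were higher than control cells there and lower on the scanner scale. Without secondary replicate 2 the difference between secondary and control cells was 1.29 and passed (limma adjusted p = 0.012). On both control arrays and on secondary replicate 2 its rank was one at which secondary replicate 1 had no detected feature.

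Both 3p arms of the miR-99b and miR-125a hairpins, which lie together in one cluster outside the Hox genes, were low in secondary cells. MiR-99b-3p had a total gene signal of 20.2 and 21.6 in control, 22.6 and 16.6 in Rb-depleted primary and 10.2, 10.3 and 8.60 in secondary cells. Its difference between secondary and Rb-depleted primary cells was -0.66 on the deposited log2 scale (SE 0.20, limma adjusted p = 0.066) and -1.0 without normalization (limma adjusted p = 0.0096). MiR-125a-3p read 46.0 and 50.9 in control, 40.5 and 47.4 in Rb-depleted primary and 28.7, 23.3 and 18.8 in secondary cells, with -0.71 on the deposited scale (SE 0.24, limma adjusted p = 0.081) and -0.91 without normalization (limma adjusted p = 0.019). The 5p arm miR-99b-5p had a deposited difference of -0.21 in the same comparison (SE 0.08, limma adjusted p = 0.11). MiR-100-5p, miR-125b-5p and miR-99a-5p had deposited differences between -0.15 and 0.21 in the 3 comparisons, none of which passed. The intervals of these miRNAs are shown in the plot of miR-615-3p and the relatives of miR-10.

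**Figure D5:**
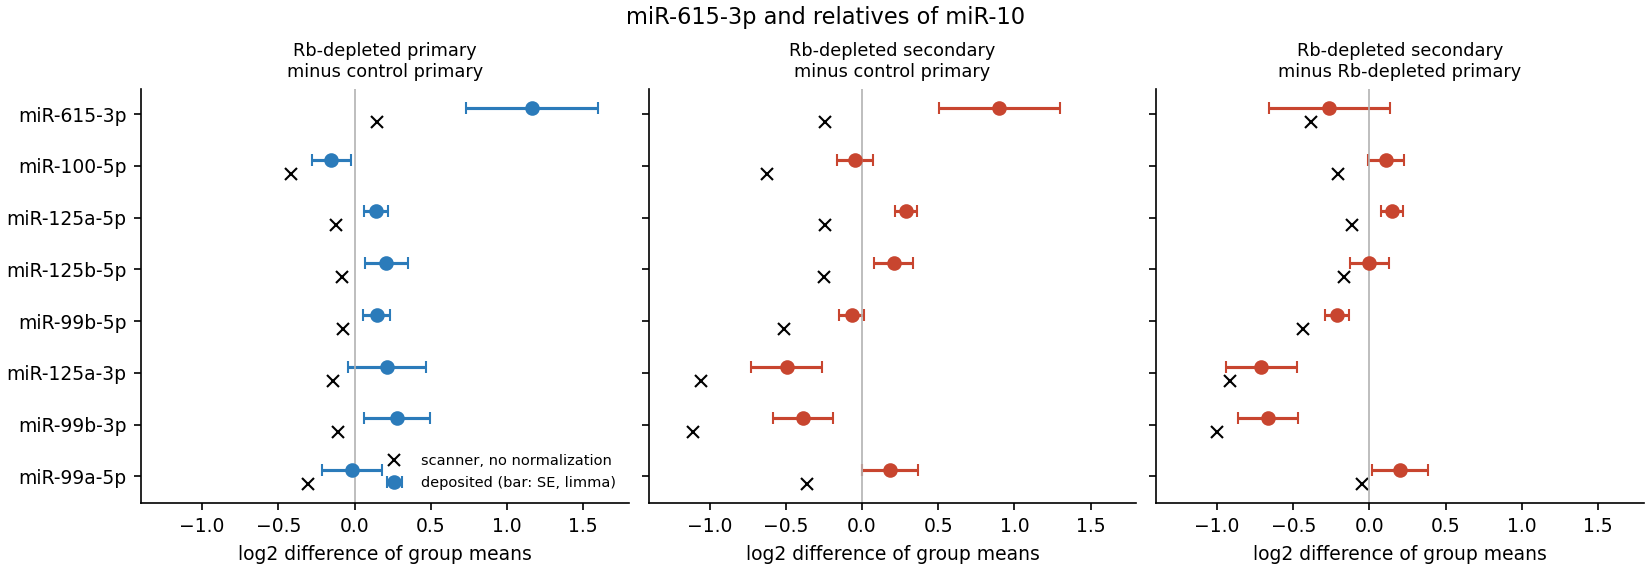
Log2 difference of group means for miR-615-3p and 7 relatives of miR-10 in the 3 comparisons, on the deposited scale (points, bars are the SE from limma) and without normalization (crosses). Crosses lie to the left of the points in all comparisons, and miR-615-3p is at 0.90 and -0.24 for secondary against control cells.

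Some markers of other cell types also differed between these groups. The endothelial marker miR-126-3p was detected on the 4 arrays of primary cells and on 0 of 3 of secondary cells. It was 1 of the 2 endothelial markers on the array, whose summed signal was 9.94 to 10.8 in control, 7.12 to 9.20 in Rb-depleted primary and 0.2 in secondary cells. The other one, miR-126-5p, was detected on 0 arrays. The summed muscle markers read 46.6 to 47.3 in control, 28.1 to 44.1 in Rb-depleted primary and 13.2 to 36.7 in secondary cells, and the summed neural markers 159 to 162, 93.3 to 135 and 82.7 to 118. For both sums the ranges of the 2 Rb-depleted groups overlapped. These signals are not normalized, and on that scale the table's median log2 difference from control was -0.26 in Rb-depleted primary and -0.46 in secondary cells. The part of these markers in the values of miR-196a-5p was not tested.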

How the data were processed

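MiRNA expression was measured on 1-colour Agilent mouse arrays (8x15K, release 15.0) in 3 groups of sarcoma cells. The authors deposited the scanner output for each array, background-subtracted intensity per spot, probe and miRNA (Feature Extraction 10.7.3.1 per the labels, 11.0.1.1 per the file headers), and 1 quantile-normalized GeneSpring table on the log2 scale. It lists 252 mouse miRNAs, and its 11 control rows were left out. The detection flag (other unit) was used as deposited. The labels speak of separate experiments without saying whether cultures were separate, so errors and p-values measure the spread between arrays, which may be technical. Precision is limited by having 2 or 3 arrays per group.

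The members, the lists and the rules were chosen with earlier results of these data known. Table rows were matched to scanner names by repeating the quantile normalization over 718 features (largest gap 3.24e-06), and 195 names differed. Companions were tested with limma 3.58.1 in R 4.3.3 on all 252 miRNAs, with Benjamini-Hochberg adjustment at 0.05 per comparison and 0.1 for the F-test. On 20 simulated sets of 252 miRNAs, 60 were changed by a log2 of 1. The comparison of secondary with control cells found 82.1% of them, with 4.55% of its calls false. The simulated noise was normal and independent, with the spreads shuffled among miRNAs. Normalization, undetected features and slides were not simulated, so these rates need not hold for the companion tests. Other steps used Python 3.11.15 (pandas 2.3.3, numpy 2.4.6). The miRNAs named are all arms of the 4 hairpin names, the companions and the 3 nearest in pattern. Loci come from the GENCODE annotation of NCBIM37, the build of the file headers.

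The alternatives were 2 scalings to the 75th percentile, quantile normalization of the table alone or of detected features only (the last added after the data were seen), no normalization, median spot signals, an offset of 16, 292 miRNAs with a floor of 1, slide or replicate number as a term, other thresholds and tests, and each array left out in turn.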

Additional observations from a re-analysis of the deposited data

Results flagged for a closer look

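MiR-196a-5p was flagged because the 2 Rb-depleted groups moved in opposite directions from the same control arrays in the deposited table. Both Rb-depleted primary arrays lay below the control arrays, with a log2 difference of -1.14, and all 3 secondary arrays lay above them, with a log2 difference of 2.21. The difference between these effects was not tested, since the miRNA was chosen for its values in these groups. The lower value in primary cells was -0.21 when ranks with an undetected feature on secondary replicate 1 were averaged over the other arrays, and the higher value in secondary cells stayed at 2.21.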

How the results depend on the processing

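MiR-196a-5p stayed higher in secondary cells under all 15 alternatives of each comparison, and lower in Rb-depleted primary than in control cells under all 14. It was chosen for its values in these groups, so these counts are a description. Here A is Rb-depleted primary minus control, B secondary minus control and C secondary minus Rb-depleted primary, on the log2 scale. For A the 14 are not separate checks. Slide or replicate number as a term, and the arrays of the primary cells' slide alone, return the deposited -1.14 by construction. The values with an array left out reuse the deposited values, with the undetected ranks of secondary replicate 1 still in them. The 15 of B and of C are not separate checks either. Slide as a term and the arrays of that slide alone gave the same 2.64 (B) and 3.78 (C), resting on secondary replicate 1, a high array. The replicate block gave the same 1.85 (B) and 2.99 (C) as leaving out secondary replicate 3. Values with an array left out reuse the deposited values there too. The cause of shifts not explained by an alternative's own construction was not tested. With the 75th percentile of detected miRNAs, miR-196a-5p was -0.30 (A) and 2.36 (C), and miR-10b-5p 0.14 (A) and 0.034 (B). With that of all mouse miRNAs they were -0.16 (A) and 2.25 (C), and 0.29 (A) and 0.060 (B), and 0 members separated the groups in A. Quantile normalization of the table alone gave miR-196a-5p 2.48 (C), and with detected features only -0.21 (A) and 2.42 (C). Without normalization miR-196a-5p was 2.14 (C), miR-10a-5p -0.17 (B), and miR-10b-5p -0.42 (B) and -0.33 (C). There 2 members separated the groups in A (miR-196a-5p and miR-10a-5p), B and C (miR-196a-5p and miR-10b-5p). The table's median moved down as well, to -0.26 (A), -0.46 (B) and -0.18 (C). The share of the table that separated was counted only for the deposited values of all arrays. Median spot signals gave miR-196a-5p -0.41 (A), 1.31 (B) and 1.71 (C), miR-10a-5p -0.10 (B), and miR-10b-5p -0.47 (B) and -0.40 (C). The offset of 16 gave miR-196a-5p -0.22 (A), 1.02 (B) and 1.24 (C), miR-10a-5p -0.16 (B) and miR-10b-5p -0.40 (B). With slide as a term, or with only the arrays of that slide, which both leave secondary replicate 1 alone, miR-10b-5p was -0.019 (B) and 0 (C).

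Of the 8 companions, B called 2 with the table normalized alone, 4 without normalization and 0 with slide as a term or with adjustment over the 3 comparisons together. C called 1 with the 75th percentile of detected miRNAs, 2 with that of all mouse miRNAs, 1 with the table normalized alone and 2 without normalization. The F-test called 1 by classical analysis of variance and 0 at a threshold of 0.05. Without normalization miR-125a-5p reversed to -0.24 (B). There the table's median was -0.46 (B) and -0.18 (C). The share of the table that was called was counted only for the deposited values of all arrays. These counts are therefore not read as results about the companions, nor are those with a replicate block or an array left out.

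Replicate numbers do not pair the arrays: deviations of same-numbered arrays correlated from -0.14 to 0.13 over 6 pairs, and of others from -0.19 to 0.19. With a replicate block, which leaves secondary replicate 3 without a partner, miR-196a-5p was -1.14 (A), 1.85 (B) and 2.99 (C), and B called 0 companions.

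Leaving out 1 array at a time, miR-196a-5p ranged from -1.27 to -1.01 (A), 1.85 to 2.78 (B) and 2.99 to 3.92 (C). The ranges of A and C keep the undetected ranks of secondary replicate 1. With detected features only the values were -0.21 (A) and 2.42 (C), outside these ranges. Members whose groups do not overlap numbered 1 to 3 (A, with 3 without either control array), 1 to 2 (B, with 2 without control replicate 1 or secondary replicate 1 or 2) and 1 to 2 (C, with 2 without secondary replicate 1 or 2). The share of the table was not counted for these smaller sets. Groups of 1 or 2 arrays fail to overlap more easily, so the higher counts are not read as results about the members. Companions called numbered 0 to 2 in B, with 2 without secondary replicate 2 and 0 without any other array, and 0 in A and C. With 2 or 3 arrays per group, and primary values of miR-196a-5p near the detection limit, small differences could not be resolved.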
